A study of Mus musculus with 4 samples.

Results

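Levels of 9 genes that recruit, hold or sustain monocytes and macrophages were taken from single-cell RNA sequencing of mouse ascites. The genes were Ccl2, Ccl7, Ccl6, Ccl9, Ccr2, Cx3cr1, Csf1, Il34 and Csf1r, chosen by name, out of 29835 genes joined over the libraries. The ascites came from female C57BL/6NCrl mice, aged 6 weeks at injection, that carried intraperitoneal ID8-Trp53-/- cells, a mouse ovarian surface epithelial line without Trp53 that was labelled with a near-infrared fluorescent protein. After 7 days of engraftment the mice were treated with DMSO and IgG2a isotype antibody (control), with BTYNB and isotype antibody (BTYNB), with DMSO and the PD-1 blocking antibody RMP1-14 (anti-PD-1), or with BTYNB and the PD-1 blocking antibody (combination), until about 3 mL of ascites had formed. BTYNB, a small-molecule inhibitor of the RNA-binding protein Igf2bp1, is labelled with a dose of 50 mg/kg, and the antibodies with 100 ng a dose. The authors' methods give other amounts of BTYNB and of the anti-PD-1 antibody than these labels, so the doses given are uncertain. The tumour cells of every group lacked Trp53, and all groups received an antibody. Cells of several mice were pooled into 1 library per group, so the spread between mice was not measured, no test was run and no difference below has a replicate check.

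Monocytes leave the bone marrow and enter inflamed tissue mainly through the receptor CCR2, which binds CCL2 and CCL7. CX3CR1, the receptor of fractalkine, marks patrolling monocytes and several kinds of tissue macrophage. CSF1 and IL34 are separate ligands of one receptor, CSF1R, on which most macrophages depend for survival. Ccl6 and Ccl9 encode chemokines of rodents that are made largely by myeloid cells and act through CCR1. In peritoneal ovarian tumours, macrophages are a large part of the leukocytes in the ascites.

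Unique molecular identifiers (UMIs) were counted per gene and cell. Cells needed at least 200 detected genes and at most 33% mitochondrial UMIs, which kept 7834 cells of control, 18283 with BTYNB, 12019 with anti-PD-1 and 7042 with the combination. Cells were gated on UMIs. The tumour gate (at least 5 UMIs of Krt7, Krt8, Krt18, Krt19 and Wt1 and none of Ptprc) held 7114 cells of control, 3606 with BTYNB, 10923 with anti-PD-1 and 4369 with the combination. The macrophage gate (at least 5 UMIs of C1qa, C1qb and C1qc and at most 2 of the keratins) held 242, 1605, 364 and 923 cells in the same order. The monocyte gate (at least 3 UMIs of Lyz2, at least 1 of Ly6c2 and at most 1 of C1q) held 723 cells of BTYNB and 94 of combination, and the T gate (at least 2 UMIs of the Cd3 genes) held 2481 and 158. In control and anti-PD-1 the monocyte gate held 28 and 22 cells, of which 13 and 13 also passed another gate and which carried the mesothelial gene Upk3b at 418 and 280 CPM, against 517 and 455 CPM in the tumour gate of the same libraries. These cells go against the name of the gate, and no comparison was drawn from gates of fewer than 50 cells. Between 0 and 4 cell labels were shared by any pair of libraries. The smallest deposited cell had 4438 UMIs in control, 869 with BTYNB, 3533 with anti-PD-1 and 5115 with the combination, so the BTYNB library holds small cells that the other libraries do not.

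Levels are UMIs of a gene in the gated cells, scaled to a total of 1000000 UMIs (CPM), with 95% exact Poisson intervals. Ratios between libraries are log2 ratios of CPM with 95% exact intervals. All intervals cover counting error only, and levels are compared within a gene, not between genes. As a yardstick of RNA free in the suspension, the library's mean profile was scaled by genes the gated cells should lack (Tyrobp, Fcer1g, Laptm5 and Lyz2 in tumour cells, Msln, Upk3b, Lrrn4 and Upk1b in leukocytes).

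**Figure D1:**
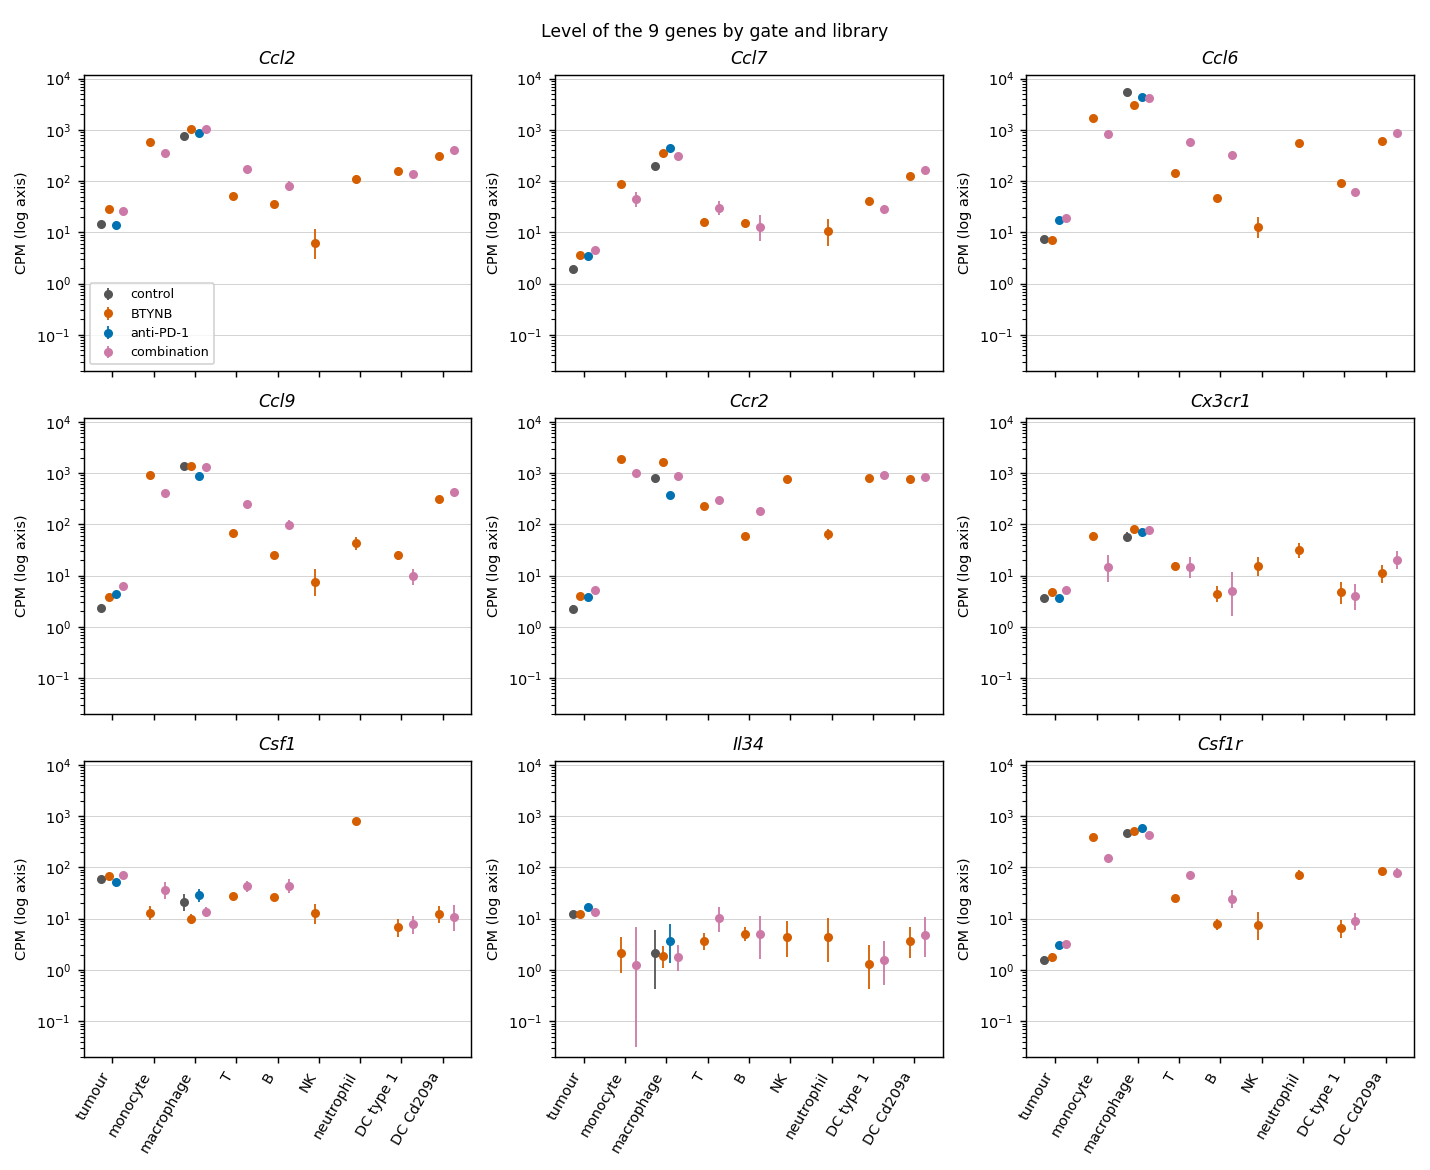
Level of each of the 9 genes (CPM, log axis) in each gate, with 1 point per library of at least 50 gated cells and 95% exact Poisson intervals. Csf1 and Il34 were at their highest in the tumour gate in control, anti-PD-1 and combination, Csf1 of BTYNB stood at 798 CPM in the neutrophil gate, and Ccr2 was spread over most leukocyte gates.

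Among the ligands of CCR2, Ccl2 was present in tumour cells as well as in macrophages, and its tumour level was higher in the libraries with BTYNB. In the tumour gate Ccl2 stood at 14.5 CPM in control (13.7 to 15.4), 28.0 with BTYNB (26.6 to 29.4), 14.0 with anti-PD-1 (13.2 to 14.8) and 26.5 with the combination (25.1 to 27.9). The libraries therefore fell into a lower pair without BTYNB and a higher pair with it, and the intervals of the pairs did not overlap. BTYNB was 1.93-fold above control (log2 0.95, 0.84 to 1.06) and combination 1.89-fold above anti-PD-1 (log2 0.92, 0.81 to 1.03). The anti-PD-1 antibody without BTYNB gave a log2 ratio of -0.05 (-0.17 to 0.07), and with BTYNB -0.08 (-0.18 to 0.02). Ccl2 in tumour cells was 4.82 times the free-RNA level in control, 9.29 times with BTYNB, 2.34 times with anti-PD-1 and 3.69 times with the combination.

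The Ccl2 of the tumour gate was held by few cells. A Ccl2 UMI was found in 337 cells of control (4.74%), 286 with BTYNB (7.93%), 516 with anti-PD-1 (4.72%) and 399 with the combination (9.13%). After each cell had been thinned to 1000 UMIs, the shares were 1.15%, 1.66%, 1.22% and 1.81% in the same order, with the same pair of libraries higher. Cells with 10 or more Ccl2 UMIs numbered 26, 34, 14 and 32 and held 40.2%, 63.0%, 17.1% and 48.9% of the Ccl2 UMIs of the gate. These were 437, 1020, 197 and 723 of 1088, 1619, 1153 and 1478 UMIs. Most of the gap in CPM between the higher and the lower pair of libraries lay in these few cells. The counting intervals take no account of such clustering of UMIs in single cells. The highest single cell had 60 UMIs in control, 117 with BTYNB, 22 with anti-PD-1 and 85 with the combination.

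Myeloid RNA moved with these cells. Lyz2, the lysozyme gene of macrophages, was at 153 CPM in control tumour cells with Ccl2 against 9.02 without, at 87.4 against 10.9 with BTYNB, at 475 against 20.8 with anti-PD-1 and at 258 against 30.9 with the combination. C1q in the cells with 10 or more Ccl2 UMIs was 12.7% of the macrophage gate's level in control, 1.67% with BTYNB, 7.96% with anti-PD-1 and 10.4% with the combination. Upk3b was no lower in cells with Ccl2 than in the others in control, BTYNB and anti-PD-1 (672 against 510, 659 against 639 and 552 against 450 CPM), and was 593 against 606 CPM with the combination. In the cells with 10 or more Ccl2 UMIs it was lower than in the cells without Ccl2 in every library, at 315, 575, 339 and 474 CPM. When tumour cells with any UMI of Tyrobp, Fcer1g or a Cd3 gene and cells in more than 1 gate were left out, Ccl2 stood at 11.7, 27.8, 9.85 and 22.9 CPM, and the log2 ratios for BTYNB were 1.25 over control and 1.22 over anti-PD-1. That setting takes out only cells with a detected UMI of these genes or in more than 1 gate. The part of myeloid RNA in the Ccl2 ratios was not tested. Over all 9 alternatives the log2 ratios for BTYNB ranged from 0.71 to 1.25 without the antibody and from 0.73 to 1.22 with it.

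Ccl7, a further ligand of CCR2, was low in tumour cells and higher in macrophages. In the tumour gate it was 1.89 CPM in control, 3.56 with BTYNB, 3.48 with anti-PD-1 and 4.61 with the combination. Control was the lowest library, and the intervals of BTYNB and anti-PD-1 overlapped. The log2 ratio of anti-PD-1 over control, 0.88 (0.58 to 1.18), dropped to 0.06 when mixed cells were left out, whereas that of BTYNB over control was 0.91 (0.59 to 1.23) and at least 0.88 under every alternative. Cells with Ccl2 held Ccl7 more often than the others did, by share of cells. Among tumour cells with Ccl2 its share was 14.5%, 17.8%, 16.7% and 15.3% (control, BTYNB, anti-PD-1, combination), against 0.325%, 0.873%, 0.548% and 1.06% among those without.

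In macrophages Ccl2 and Ccl7 were both abundant. Ccl2 stood at 762 CPM in control (718 to 809), 1042 with BTYNB (1021 to 1063), 871 with anti-PD-1 (827 to 918) and 1045 with the combination (1021 to 1069). Both BTYNB libraries were again the highest and were level with each other (log2 0.00, -0.04 to 0.05). Control was lowest here, with anti-PD-1 above it (log2 0.19, 0.08 to 0.31). The steps were smaller than in tumour cells, at log2 0.45 (0.36 to 0.54) for BTYNB and 0.26 (0.18 to 0.34) for combination over anti-PD-1. Ccl7 was 195 CPM in control (173 to 219), 352 with BTYNB (340 to 364), 451 with anti-PD-1 (419 to 485) and 314 with the combination (301 to 327). Every treated library exceeded control, and anti-PD-1 was highest, 2.31-fold above control (log2 1.21, 1.01 to 1.41). Combination was below both single treatments, with log2 ratios of -0.52 (-0.64 to -0.40) to anti-PD-1 and -0.16 (-0.24 to -0.09) to BTYNB. Ccl7 was found in 44.7% to 60.6% of macrophages with Ccl2 and in 9.83% to 26.0% of those without.

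Ccl6 and Ccl9 were read mainly in macrophages. Their genes share a stretch of 13 bases close to the start of transcription, shown here as a description. The RefSeq promoter table (assembly GRCm38.p6) holds 300 bases around the start of 5 of the 9 genes (Ccl6, Ccl9, Ccr2, Csf1 and Cx3cr1). The windows of 30 bases, on the minus strand and read 5′ to 3′, are at chr11:83593121-83593150 for Ccl6 and chr11:83578629-83578658 for Ccl9, with the shared bases in capitals.
Ccl6: cattcttgGCCCTCCACTTCCtgttgcatt
Ccl9: tcacctttGCCCTCCACTTCCcactgcaca
The stretch begins 55 bases before the start of Ccl6 and 14 bases before that of Ccl9. Within it lies ACTTCC, the letters of an ETS motif on the opposite strand. Counted on both strands, ACTTCC is in 2 of the 5 members with a promoter (Ccl6 and Ccl9) and in 7809 of 32851 promoters of the table (23.8%). The 13 bases are the longest run shared by these 2 promoters, and ACTTCC was picked inside it. Its presence in Ccl6 and Ccl9 was thus set by the choice, and the counts say nothing about enrichment. A match of letters is a description and not a site.

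In the macrophage gate Ccl6 stood at 5376 CPM in control (5257 to 5498), 3108 with BTYNB (3072 to 3144), 4339 with anti-PD-1 (4239 to 4441) and 4227 with the combination (4179 to 4275). Control was highest and BTYNB lowest, 1.73-fold apart (log2 -0.79, -0.83 to -0.75). Anti-PD-1 was below control (log2 -0.31, -0.36 to -0.26), while combination was above BTYNB (log2 0.44, 0.42 to 0.47). Ccl9 was 1356 CPM in control, 1353 with BTYNB, 859 with anti-PD-1 and 1315 with the combination. Here anti-PD-1 stood apart as the low library, with log2 -0.66 (-0.76 to -0.56) to control and 0.61 (0.53 to 0.70) for combination over it. Of macrophages with Ccl6, 94.5% in control, 91.6% with BTYNB, 85.6% with anti-PD-1 and 94.3% with the combination also had Ccl9. Nearly all macrophages had Ccl6 (238 of 242, 1520 of 1605, 354 of 364 and 894 of 923 in that order). These shares are therefore close to the share of Ccl9 over the whole gate. Of the few without Ccl6, 1 of 4, 39 of 85, 2 of 10 and 13 of 29 had Ccl9. In the tumour gate Ccl6 was 7.56 CPM in control, 6.95 with BTYNB, 17.1 with anti-PD-1 and 19.2 with the combination, which was 0.726, 0.918, 0.958 and 0.83 times the level that free RNA would give. Ccl9 in that gate was 0.798 to 1.12 times the free-RNA level. Neither was thus clearly above the level of free RNA, and no difference between tumour gates is read from them. The 2.27-fold ratio of Ccl6 between anti-PD-1 and control was log2 0.75 with mixed cells left out, and single tumour cells held up to 36 to 78 Ccl6 UMIs. The part of free RNA and of mixed cells in it was not tested.

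Among the receptors, Ccr2 was the member with the widest differences between macrophage gates. It stood at 792 CPM in control (747 to 840), 1648 with BTYNB (1622 to 1674), 381 with anti-PD-1 (351 to 412) and 893 with the combination (872 to 916). No intervals overlapped, and the order ran from anti-PD-1 through control and combination to BTYNB. BTYNB was 2.08-fold above control (log2 1.06, 0.97 to 1.14) and combination 2.35-fold above anti-PD-1 (log2 1.23, 1.11 to 1.35). Anti-PD-1 was 2.08-fold below control (log2 -1.06, -1.20 to -0.92) and combination 1.84-fold below BTYNB (log2 -0.88, -0.93 to -0.84). The share of macrophages with a Ccr2 UMI, at 1000 UMIs per cell, was 37.5% in control, 65.3% with BTYNB, 20.7% with anti-PD-1 and 41.7% with the combination, against 56.6%, 84.9%, 35.4% and 63.1% without thinning. The tumour gate, which should lack Ccr2, was at 2.25 to 5.30 CPM, 0.638 to 1.5 times its free-RNA level.

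Ly6c2, a marker of recently arrived inflammatory monocytes, ran in the order of Ccr2 in this gate, with control and anti-PD-1 close together. It was found in 27 control macrophages (11.2%), 623 with BTYNB (38.8%), 36 with anti-PD-1 (9.89%) and 161 with the combination (17.4%). Plac8 was 272, 1076, 365 and 364 CPM in the same order, highest with BTYNB like Ccr2, but no lower with anti-PD-1 than in control or combination. Lyz2, another gene of the monocyte list, went the other way, lowest with BTYNB and highest with anti-PD-1. Its UMIs were 14948 of 1430930 in control, 65658 of 9261978 with BTYNB, 20067 of 1634258 with anti-PD-1 and 74829 of 7136219 with the combination. The other genes of that list are not given here. Without the macrophages that had a Ly6c2 UMI, the log2 ratio of Ccr2 between BTYNB and control was 0.87. The lowest ratio of combination over anti-PD-1 was 0.92, with mixed cells left out, and that of anti-PD-1 to control ranged from -1.64 at a common depth floor to -0.66 with mixed cells left out.

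Cx3cr1 was present in macrophages and, at a lower level, in tumour cells. In macrophages it was 55.9 CPM in control (44.3 to 69.6), 82.5 with BTYNB (76.7 to 88.6), 71.6 with anti-PD-1 (59.2 to 85.8) and 78.9 with the combination (72.5 to 85.7). The treated libraries overlapped one another, and only BTYNB and combination lay wholly above the control interval. In tumour cells Cx3cr1 was 3.63, 4.84, 3.72 and 5.16 CPM, so the BTYNB libraries were again the higher pair, with log2 ratios of 0.42 (0.17 to 0.66) and 0.47 (0.23 to 0.71). These tumour levels were 9.1, 15.6, 4.4 and 8.51 times the free-RNA level. The yardstick uses the library's own mean, to which tumour cells gave most Cx3cr1 UMIs in control and anti-PD-1. The multiples of these libraries therefore largely follow the share of free RNA put on the tumour gate. The tumour gate held 70.4% of all Cx3cr1 UMIs in control and 64.7% with anti-PD-1, against 15.1% with BTYNB and 28.3% with the combination, where leukocytes were more numerous.

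**Figure D2:**
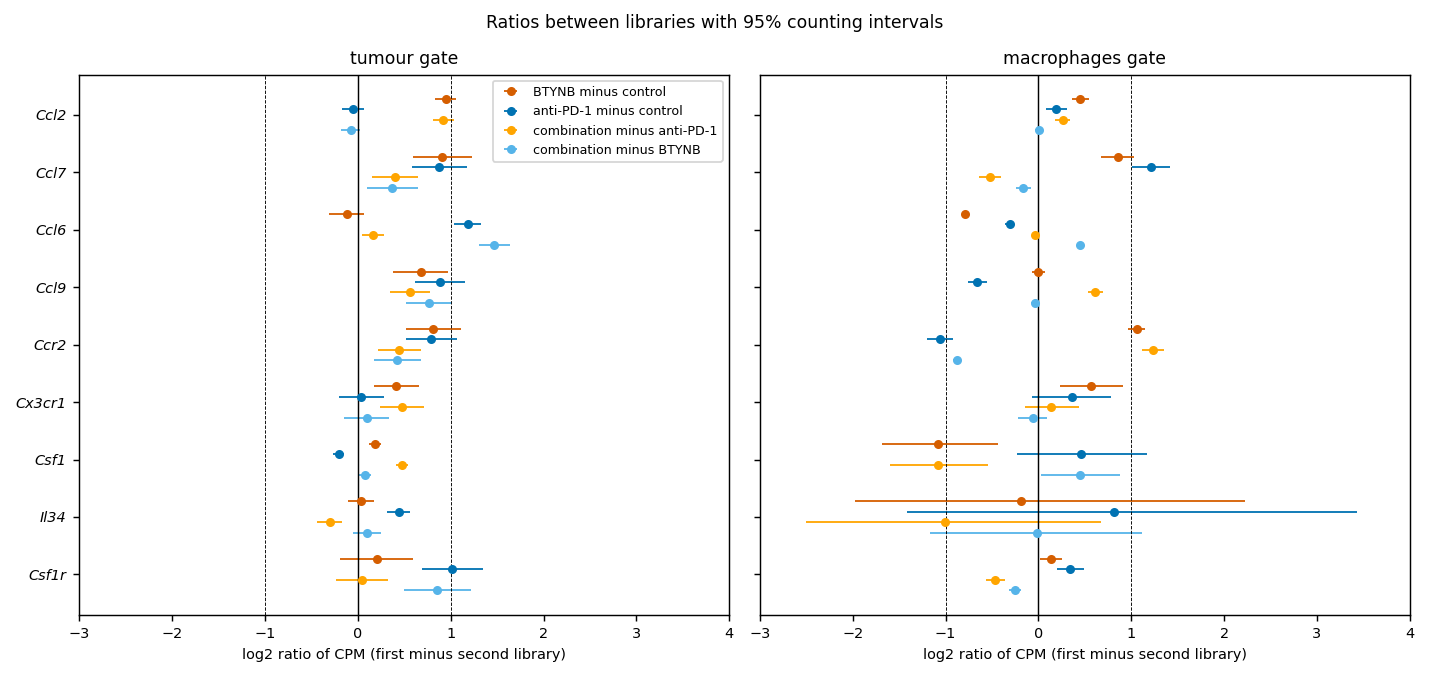
Log2 ratios of CPM between libraries for the 9 genes in the tumour gate (left) and the macrophage gate (right), with 95% exact counting intervals, and dashed lines at 2-fold. In tumour cells Ccl2 stood at 0.95 and 0.92 in both BTYNB contrasts and near 0 in both antibody contrasts, and in macrophages Ccr2 stood at 1.06 and 1.23 in the BTYNB contrasts and at -1.06 and -0.88 in the antibody contrasts.

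Csf1, the growth factor of macrophages, was a transcript of the tumour cells. In the tumour gate it stood at 59.5 CPM in control (57.7 to 61.2), 67.6 with BTYNB (65.5 to 69.7), 51.6 with anti-PD-1 (50.0 to 53.1) and 71.5 with the combination (69.3 to 73.8). The BTYNB libraries were the higher pair and anti-PD-1 was lowest, yet the range from lowest to highest library was 1.39-fold (log2 0.47, 0.41 to 0.53). Levels were 12.1, 62, 6.23 and 25.1 times the free-RNA level. That yardstick uses the library's own mean, in which tumour cells held most Csf1 UMIs. The multiples therefore largely follow the share of free RNA put on the tumour gate (8.39%, 1.92%, 16.0% and 4.72%). Tumour cells held 94.7% of all Csf1 UMIs in control, 60.6% with BTYNB, 92.7% with anti-PD-1 and 83.7% with the combination.

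The low Csf1 of anti-PD-1 came with the tumour cells that had 3 or more UMIs of Cd24a. They were 2024 cells (18.5% of the gate) with anti-PD-1 and 298, 148 and 149 cells (4.19%, 4.10% and 3.41%) in control, BTYNB and combination. In anti-PD-1 Csf1 was 7.08 CPM in these cells and 65.1 in the other tumour cells, 9.20-fold lower (log2 -3.20, -3.46 to -2.95), while in control it was 47.1 against 60.2, with BTYNB 51.0 against 69.0 and with the combination 42.4 against 73.1 CPM. A Csf1 UMI was found in 4.64% of the Cd24a-high cells of anti-PD-1 and in 28.8% of the others. Without the Cd24a-high cells the tumour level was 60.2, 69.0, 65.1 and 73.1 CPM, and the ratio of anti-PD-1 to control changed sign, from log2 -0.21 (-0.27 to -0.15) to 0.11. Il34 in the same cells of anti-PD-1 was 17.8 against 16.3 CPM, and Ccl2 was lower in Cd24a-high cells of every library, at 5.52 against 16.6 CPM with anti-PD-1 and 7.43 against 14.9 in control.

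Il34, the other ligand of CSF1R, was likewise read in tumour cells. It was 12.3 CPM in control (11.5 to 13.1), 12.6 with BTYNB (11.7 to 13.5), 16.6 with anti-PD-1 (15.8 to 17.6) and 13.5 with the combination (12.5 to 14.5). Anti-PD-1 was the high library, opposite to its place for Csf1, with log2 0.44 (0.32 to 0.56) over control and -0.31 (-0.44 to -0.18) for combination to it. The other three libraries overlapped. Levels were 12.3, 75.2, 6.38 and 26 times the free-RNA level, multiples with the same limit as those of Csf1. Tumour cells held between 73.9% (BTYNB) and 96.1% (control) of all Il34 UMIs. In macrophages Il34 rested on 3 to 17 UMIs per library, too few to compare.

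Csf1 was low in the macrophage gate, where a tumour gene was lower in the same libraries. It was 21.0 CPM in control, 9.93 with BTYNB, 28.8 with anti-PD-1 and 13.6 with the combination, on 30 to 97 UMIs per library. The libraries with BTYNB were the lower pair, with log2 -1.08 (-1.69 to -0.43) to control and -1.08 (-1.60 to -0.55) for combination to anti-PD-1. Upk3b in the same macrophages was 32.1, 11.3, 68.5 and 36.3 CPM, lower in each BTYNB library than in its comparator. Csf1 stood at 3.15 to 6.32 times the level that free RNA would give. With keratin-bearing cells left out the log2 ratio of BTYNB to control was -0.72, and with stricter gates that of combination to anti-PD-1 was -0.50. The part of tumour RNA in these ratios was not tested.

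Csf1r, the receptor, was a transcript of the macrophages and monocytes. In macrophages it was 460 CPM in control (425 to 496), 504 with BTYNB (489 to 518), 583 with anti-PD-1 (546 to 621) and 422 with the combination (408 to 438). Anti-PD-1 was highest, 1.27-fold above control (log2 0.34, 0.20 to 0.49), and combination lowest, at log2 -0.46 (-0.57 to -0.36) to anti-PD-1. At a common depth floor these ratios were 0.02 and -0.07. The macrophage gate held 73.4%, 58.4%, 68.7% and 76.8% of all Csf1r UMIs. In tumour cells Csf1r was 1.55 to 3.23 CPM, 1.27 to 1.66 times the free-RNA level.

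**Figure D3:**
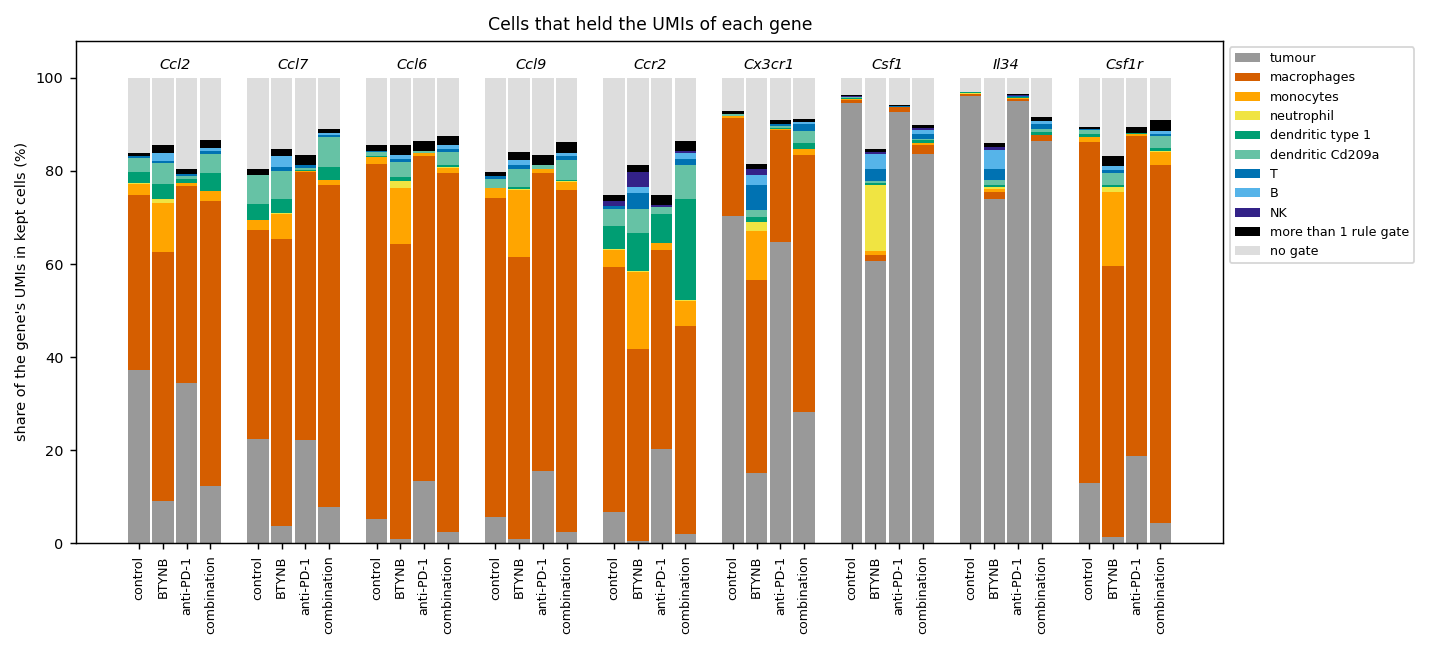
Share of each gene's UMIs in kept cells (%) that lay in each gate, as 1 stacked bar per library, with cells of more than 1 gate and of no gate shown apart. Csf1 and Il34 lay mostly in tumour cells, Ccl6, Ccl9 and Csf1r in macrophages, and 14.2% of the Csf1 UMIs of BTYNB lay in the neutrophil gate.

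Macrophages of a library differed among themselves. Cells with 3 or more UMIs of Retnla, a gene of alternative activation, were 37 in control (15.3%), 77 with BTYNB (4.80%), 10 with anti-PD-1 (2.75%) and 161 with the combination (17.4%). In these cells Cx3cr1 was 3.18 CPM (2 UMIs) with BTYNB against 88.3 in the others, a log2 ratio of -4.79 (-7.84 to -2.93), and 12.2 against 93.9 with the combination (log2 -2.95, -3.76 to -2.23). Ccl6 and Ccl9 were higher in the same 77 BTYNB and 161 combination cells, at 4805 against 2985 and 7663 against 3452 CPM for Ccl6. Ccl9 was 2317 against 1283 and 2727 against 997 CPM. Csf1r was lower, at 290 against 519 and 298 against 451 CPM. Ccr2 was higher with the combination (1497 against 757 CPM) and much less with BTYNB (1688 against 1645 CPM). When the Retnla-high cells were left out of every library, the log2 ratios of Ccl6 were -0.72 for BTYNB over control, -0.21 for anti-PD-1 over control, -0.29 for combination over anti-PD-1 and 0.21 for combination over BTYNB. Those of Ccl9 were 0.16, -0.50, 0.29 and -0.36 in the same order. For Ccr2 they were 1.43, -0.81, 1.12 and -1.12. The directions of the Ccl6 and Ccr2 differences held. For Ccl9, combination over BTYNB went from -0.04 to -0.36. BTYNB over control went from -0.0033, with an interval that held 0, to 0.16. The cells were drawn by Retnla alone, and their median depth was 7766 UMIs against 4758.5 for the others with BTYNB and 7743 against 7055.5 with the combination.

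**Figure D4:**
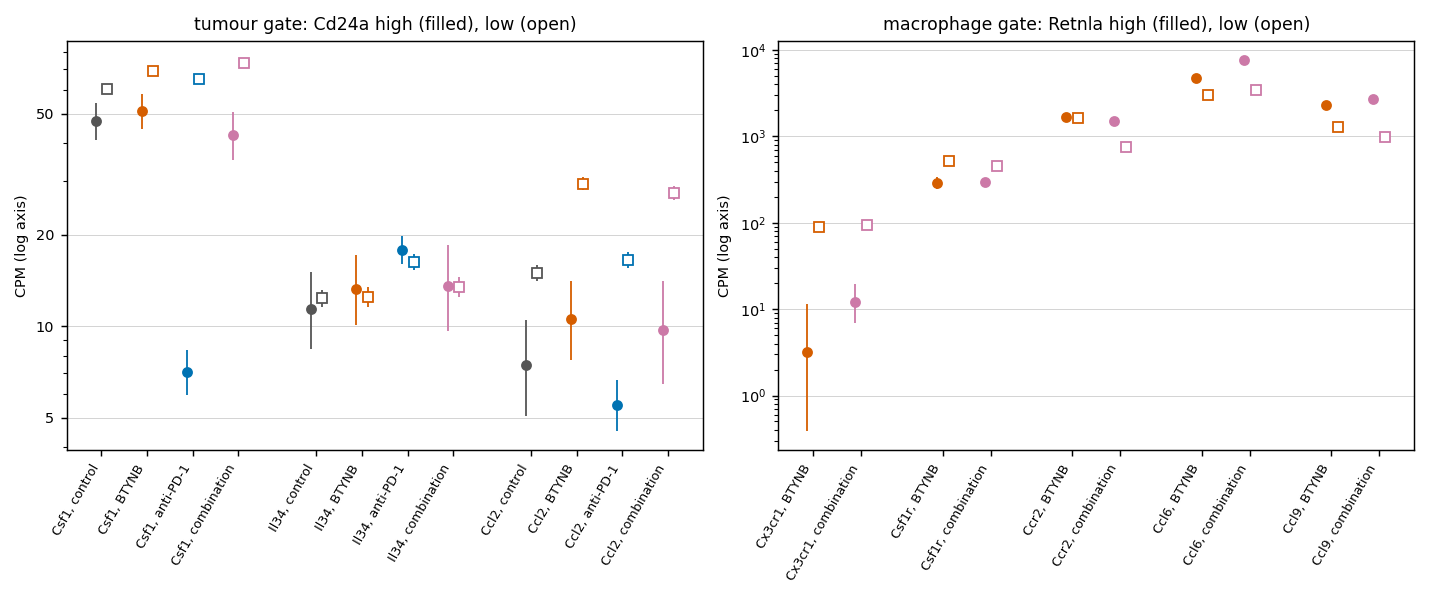
Levels (CPM, log axes, 95% exact Poisson intervals) in Cd24a-high (filled) and other (open) tumour cells of each library (left), and in Retnla-high (filled) and other (open) macrophages of BTYNB and combination (right). Csf1 of Cd24a-high cells was 7.08 CPM with anti-PD-1, the other libraries lay between 42.4 and 51.0 CPM, and Cx3cr1 was lower in Retnla-high macrophages of both libraries.

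The monocyte gate could be compared between BTYNB and combination. Ccr2 was 1874 CPM with BTYNB and 1016 with the combination, Ccl2 589 and 349, and Ccl6 1674 and 843. Ccl9 was 905 and 410, Csf1r 387 and 153, and Cx3cr1 60.1 and 14.7 CPM. Each of these was lower with the combination, with log2 ratios from -0.75 for Ccl2 to -2.03 (-3.01 to -1.20) for Cx3cr1. Csf1 was higher with the combination, at 35.5 against 13.1 CPM, but stood at 1.05 times the free-RNA level there. The gates did not hold the same mixture. The 9 tumour markers summed to 373 CPM with BTYNB and 1423 with the combination, and the 4 neutrophil markers to 8538 and 14.7 CPM. Another gate was also passed by 31 of the 723 monocytes of BTYNB and 21 of the 94 of combination. Subtracting the free-RNA level left Ccr2 at 1833 CPM with BTYNB and 918 with the combination, and Ccl2 at 569 and 264. The free-RNA alternative also rescaled the remainder to a new total, with free RNA put at 12.8% with BTYNB and 55.7% with the combination. Its log2 ratios were -0.05 for Ccr2, -0.16 for Ccl2, -0.51 for Ccl9 and -0.64 for Csf1r. The values without rescaling are still set against all UMIs of the gate, free RNA included, so their bases differ between the libraries. No ratio is read from them. The ratios of this gate thus depended on how free RNA was treated, and its part in them was not tested. At a common depth floor 1 member was at least 2-fold apart. Within the BTYNB gate, the 538 cells with 5 or more UMIs of the MHC class II genes H2-Aa and H2-Ab1 had Ccl2 at 671 CPM, Ccl7 at 110 and Ccr2 at 1976, against 303, 16.3 and 1520 CPM in the other 185.

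Other leukocytes were gated on their own markers among cells outside the gates above. In the neutrophil gate (at least 5 UMIs of S100a8 and S100a9), which held 602 cells of BTYNB and 6, 1 and 5 of control, anti-PD-1 and combination, Csf1 was 798 CPM (747 to 851). A Csf1 UMI was found in 265 of the 602 cells (44.0%), or 39.1% at 1000 UMIs per cell, and the highest cell had 21 UMIs. Csf1 was 967 CPM in the 516 cells without keratin UMIs and 785 CPM in the 540 cells with Cxcr2 or Retnlg, so Csf1 was no lower in cells without tumour keratins. In the 62 cells without Cxcr2 and Retnlg it was 868 CPM, found in 69.4% of them against 41.1% of those with either gene, and it was 697 CPM in the 401 cells with 20 or more UMIs of S100a8 and S100a9. The 9 tumour markers summed to 680 CPM in the gate. Since the median neutrophil had 1344.5 UMIs and the smallest cells of the other libraries had at least 3533, the absence of such cells elsewhere cannot be told apart from the depth of the libraries.

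Ccr2 was shared by several of these gates. It was 749 CPM in 409 natural killer cells of BTYNB, found in 78.5% of them, while Ccl7 had 0 UMIs there, which allows up to 1.89 CPM when 3 UMIs are taken as the limit of a count of 0 (2.33 CPM by the exact interval). In type 1 dendritic cells (Xcr1 and Clec9a) Ccr2 was 782 CPM with BTYNB and 929 with the combination, and this gate held 8.30% and 21.8% of all Ccr2 UMIs. In dendritic cells with Cd209a, Ccl2 was 315 and 405 CPM, Ccl6 617 and 881, Ccl9 313 and 430, and Ccr2 752 and 830 CPM with BTYNB and combination. The T and B gates had higher members with the combination, as Ccl6 at 573 against 144 CPM in T and 326 against 46.0 CPM in B. Lyz2 moved with them, at 1467 against 364 CPM in T and 790 against 77.4 in B, and 46 of the 158 T cells of combination also passed another gate. The part of myeloid RNA in the T and B values was not tested.

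The count of members that were apart between libraries was set beside the count over all genes. A gene was counted when its CPM, with 1 CPM added, was at least 2-fold apart and at least 10 UMIs were expected in the shallower library. In tumour cells 0 of 9 members were 2-fold apart between BTYNB and control, against 0.723% of all genes. Between anti-PD-1 and control 1 of 9 (Ccl6) was, against 2.21%, between combination and anti-PD-1 0 of 9, against 2.24%, and between combination and BTYNB 1 of 9 (Ccl6), against 0.119%. Median log2 ratios were also taken with 1 CPM added, which makes the ratios of low genes smaller than those printed above. In tumour cells the median of the members was 0.34, 0.59, 0.37 and 0.30 in that order, beside 0.02, -0.04, 0.06 and -0.0046 over all genes. Only Ccl2, Ccl7, Cx3cr1, Csf1 and Il34 of them stood above 1.5 times the free-RNA level in every library.

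In macrophages 2 of 8 tested members were 2-fold apart between BTYNB and control (Ccr2 higher, Csf1 lower), against 9.14% of all genes. Between anti-PD-1 and control 2 of 8 were (Ccl7 higher, Ccr2 lower), against 4.12%. Between combination and anti-PD-1 2 of 8 were (Ccr2 higher, Csf1 lower), against 5.44%, and between combination and BTYNB 0 of 9, against 4.2%. The median log2 ratios, again with 1 CPM added, were 0.29, 0.27, 0.05 and -0.04, beside -0.06, -0.05, -0.03 and 0.01 over all genes. Ccr2 and Csf1 were thus apart in the same direction in both BTYNB contrasts, as were 178 of 8951 genes (1.99%). Between combination and BTYNB, 4 of 8 members were 2-fold apart in the monocyte gate, against 18.1%, 4 of 8 in the T gate, against 14.5%, and 5 of 7 in the B gate, against 15.5%. In type 1 dendritic cells 1 of 8 (Ccl9 lower) was, against 1.97%, and in Cd209a dendritic cells 0 of 8, against 3.28%.

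A list of 36 further genes of these pathways (other monocyte ligands, receptors, growth factors with their receptors, and factors of the monocyte line) was counted in the same way. In tumour cells 1 of 30 tested genes was higher and 0 lower between BTYNB and control, against 0.285% and 0.439% of all genes, and 2 of 32 were higher and 1 lower between combination and anti-PD-1, against 0.448% and 1.8%. In macrophages 2 of 29 were higher and 4 lower between BTYNB and control, against 2.27% and 6.87%, and 1 of 29 higher and 3 lower between combination and anti-PD-1, against 1.93% and 3.51%. For the antibody, 3 of 31 were apart in tumour cells and 3 of 29 in macrophages between anti-PD-1 and control, and 0 of 31 and 3 of 31 between combination and BTYNB, beside the shares of all genes given above. Between combination and BTYNB the monocyte gate had 2 of 25 higher and 13 lower, against 11.3% and 6.84%, and the T gate 10 of 28 higher and 2 lower, against 8.05% and 6.42%, with the tumour, neutrophil and myeloid RNA given above. In the B gate 10 of 24 were apart, and in the type 1 and Cd209a dendritic cells 2 of 25 and 2 of 25. In macrophages the genes of the list apart in the same direction in both BTYNB contrasts were Ccl5 and Cxcl12. Ccl5, a chemokine made by activated lymphocytes and myeloid cells, was 60.8 CPM in control, 131 with BTYNB, 41.0 with anti-PD-1 and 174 with the combination in macrophages (log2 1.09 and 2.06). Cxcl12, the ligand of CXCR4 and mainly a product of stromal and mesothelial cells, was 13.3, 1.19, 12.8 and 3.08 CPM (log2 -2.71 and -1.76). The log2 ratios of both genes were taken with 1 CPM added, which makes those of Cxcl12, at 1.19 CPM with BTYNB, smaller than the plain ratios. Upk3b of the same gate, given above, was also lower in each BTYNB library than in its comparator. Cxcl12 of the tumour gate was higher in the same contrasts (log2 0.31 and 1.15, with 1 CPM added). The part of tumour RNA in the Cxcl12 ratios was not tested.

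The genes whose levels were most like those of each member were sought among 6915 genes over 12 combinations of gate and library, which share libraries and depth, so that the values are descriptions. Csf1r was most like Fcgr3 (Pearson r 0.999 of log2 CPM), an activating Fc receptor of macrophages. Ccl6 was most like Sdc3 and Itgam (r 0.998 and 0.998), and Ccl9 most like Cybb (r 0.997), the catalytic subunit of the phagocyte oxidase. Ccl2 was most like Arap1 (r 0.994), Ccl7 like Sash1 (r 0.993), Ccr2 like Pik3ap1 (r 0.995) and Cx3cr1 like Cept1 (r 0.991). Csf1 was most like Phldb2 (r 0.991), and Il34 most like Atf7 and Bmp4 (r 0.979 and 0.973).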

How the data were processed

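Ascites cells were profiled in 4 libraries, 1 per treatment, each pooled from several mice by the authors. The authors used the BD Rhapsody platform and its sequence analysis pipeline, and the deposited values are raw counts of UMIs per gene symbol and cell. The labels name GRCm39 as the build, so the GRCm38.p6 promoter windows are credited to RefSeq and no coordinates of the files are given. Counts were read as sparse matrices with Python 3.11.15, numpy 2.4.6, scipy 1.17.1 and pandas 2.3.3, and joined over 29835 genes. Library totals ranged from 78603888 to 114600397 UMIs, and median kept cells from 2622 to 9510 UMIs. No doublet caller was run here. Cells in more than 1 gate (26 to 89 per library) or with another lineage's genes were left out as an alternative. UMIs were summed per gate and library. The members, gates, lists and subsets were chosen with earlier results of these data known. The rule for named genes took the 9 members, the 3 genes most like each by Pearson correlation of log2(CPM + 10) among genes of at least 20 CPM, and pathway genes at least 2-fold apart in the same direction in both contrasts of a treatment. Ratios needed 50 cells in both gates. Scripts were tested on simulated data. Alternatives were cell floors, weights, stricter gates, quality limits, free-RNA subtraction with the remainder rescaled, scaling, pseudocount and filter.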

Additional observations from a re-analysis of the deposited data

Results flagged for a closer look

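In some gates, a treatment contrast had opposite signs without and with the other agent. These differences rest on 1 library per group, and the difference between the contrasts was not tested in any case. For Csf1 in tumour cells the log2 ratio for anti-PD-1 was -0.21 without BTYNB and 0.081 with it. The former became 0.11 when Cd24a-high cells were left out. For Ccl7 in macrophages the log2 ratio for BTYNB was 0.85 without the antibody and -0.52 with it, and that for anti-PD-1 was 1.21 without BTYNB and -0.16 with it. Ccl7 was higher in each treated library than in control, and combination was below both single treatments. For Ccl6 in macrophages the log2 ratio for anti-PD-1 was -0.31 without BTYNB and 0.44 with it. For Csf1r in macrophages the log2 ratio for BTYNB was 0.13 without the antibody and -0.46 with it. That for anti-PD-1 was 0.34 without BTYNB and -0.25 with it. The signs of Csf1r were not stable. BTYNB over control was -0.019 with mixed cells out. At a common depth floor combination over anti-PD-1 was -0.07 and anti-PD-1 over control 0.02.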

How the results depend on the processing

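No paired analysis was possible because each group is 1 library and the results come from no test. Of the alternative log2 ratios, 611 stayed within the counting interval of the reported ratio, 174 moved further and 13 changed the sign of a ratio whose interval left out 0. A further 32 changed the sign of a ratio whose interval held 0. The members at least 2-fold apart numbered 0, 1, 0 and 1 in tumour cells (in the order BTYNB over control, anti-PD-1 over control, combination over anti-PD-1, combination over BTYNB), 2, 2, 2 and 0 in macrophages, and 4 each in monocytes and T cells of combination over BTYNB. At a common depth floor the counts were 1 in monocytes and 1 in T cells. With a mean over cells they were 0 for BTYNB over control and 1 for combination over anti-PD-1 in macrophages, as they were without the 5% deepest cells. With mixed cells out they were 1, 0 and 1 in tumour cells and 1, 1 and 0 in macrophages for all contrasts but combination over BTYNB, in the order above. With stricter gates they were 1 in tumour cells of BTYNB over control and 1 in macrophages of combination over anti-PD-1. With free RNA subtracted they were 2 for combination over anti-PD-1 and 0 for combination over BTYNB in tumour cells, 1 in monocytes, and 1 and 1 for both contrasts with control in macrophages. With median-of-ratios scaling, which shifted all genes by 0.14 on the log2 scale in monocytes and 0.10 in T cells, they were 7 in monocytes and 1, 1 and 1 in the same contrasts of macrophages. With a pseudocount of 10 CPM they were 0 and 0 in tumour cells of anti-PD-1 over control and combination over BTYNB, and 1 and 1 in macrophages of BTYNB over control and combination over anti-PD-1. In alternatives chosen after seeing the data, leaving out macrophages with Ly6c2 gave 1 for BTYNB over control, leaving out Retnla-high macrophages gave 1, 1 and 1 for all contrasts but BTYNB over control, and leaving out monocytes with neutrophil genes gave 7.

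The log2 ratios that changed sign although their interval left out 0 were these. In macrophages, Ccl6 of combination over anti-PD-1 was 0.084 at the depth floor and 0.018 with median-of-ratios scaling, Ccl9 of combination over BTYNB was 0.050 as a mean over cells, 0.017 with free RNA subtracted and 0.026 without Ly6c2-bearing cells, and Csf1r of BTYNB over control was -0.019 with mixed cells out. In T cells at the depth floor, Ccl7 was -0.078, Ccr2 -0.22 and Csf1 -0.36, and with stricter gates Ccr2 was -0.044. In tumour cells, Ccl6 of combination over anti-PD-1 was -0.11 with stricter gates and Csf1 of anti-PD-1 over control was 0.11 without Cd24a-high cells. In monocytes Csf1 was -0.71 with free RNA subtracted. The cause was not tested, except that the last setting subtracts the tumour RNA by construction. Mixed cells out left 30 monocytes and 34 T cells in combination, and stricter gates 47 monocytes, so these settings gave no value there. The depth floor kept 66 of 364 macrophages of anti-PD-1 and 735 of 1605 of BTYNB, and 187 of 723 monocytes and 241 of 2481 T cells of BTYNB.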
